A study of Macaca fascicularis with 10 samples.

Results

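The genes described here encode the machinery of mitochondrial respiration and protein import. They are the 64 rows, of 7229 in the deposited table, whose gene name begins with NDUF, COX and a digit, ATP5, UQCR, SDHA to SDHD, TIMM, TOMM, COQ or COA and a digit, PDH, PDK and a digit, IDH, ACAD, DLAT, DLST or OGDH, or is DLD. The rule uses gene names alone. RNA of the dorsal raphe nucleus, a brainstem region that holds serotonin neurons, came from 10 female cynomolgus macaques (Macaca fascicularis), all untreated as far as the labels say and with no genotype or age given. The labels name a mother and a father for every animal, and the table splits each gene's reads by the parent the allele came from. The numbers 1 to 10 used for the daughters follow the order of the labels. Daughters 1, 7 and 8 carry the same father label, daughters 4 and 5 share another, and daughters 6 and 10 have the same mother label.

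Mitochondria make most of a neuron's ATP. NADH dehydrogenase (complex I) and succinate dehydrogenase (complex II) pass electrons to coenzyme Q, the next complexes pass them on to oxygen while protons are pumped, and ATP synthase uses the proton gradient. Pyruvate dehydrogenase, the citric acid cycle and the acyl-CoA dehydrogenases supply the electrons. Nearly all of these proteins are encoded in the nucleus, so they have a maternal and a paternal allele, and they enter the organelle through the TOM and TIM translocases.

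The rows held 18 complex I subunits, 2 complex I assembly factors, 2 genes of complex II, 12 ATP5 genes, 4 COQ genes, 6 inner membrane (TIMM) and 5 outer membrane (TOMM) import genes, 6 genes of the pyruvate dehydrogenase complex and its kinases, 3 isocitrate or oxoglutarate dehydrogenase genes and 6 acyl-CoA dehydrogenases. COX, UQCR and COA genes were not analysed here. A gene can be measured in a daughter only where reads tell her parents apart. With 10 or more allelic reads, 62 of the 64 genes were measured in at least 1 daughter, 25 in 5 or more, 5 in 9 or more, and NDUFA10 and NDUFB9 in all 10. ATP5G1 and TIMM9 stayed under 10 reads in every daughter. This gave 274 values, 1 for each gene and daughter, with a median of 125.5 reads, against 54 over all genes of the table.

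Daughter 1 had the fewest allelic reads (30090) and daughter 6 the most (999471), and the genes described here took between 0.910% and 2.20% of them. Of the 8 listed genes of serotonin neurons 6 had a row. TPH2, which makes serotonin and marks the labelled nucleus, had 10 or more reads in 7 daughters. DDC had them in 5, SLC18A2 and GCH1 in 3 each, SLC6A4 in 2 and LMX1B in 0. Of the fixed marker lists, 5 of 6 endothelial and 3 of 4 choroid plexus genes had a row, HBB was the only row of the 8 for microglia and blood, and the oligodendrocyte, astrocyte and cerebellar lists were not analysed here. In bulk tissue, fewer cells of a type and less RNA per cell cannot be told apart, and the reads of a gene also follow the number of positions that tell the parents apart, so levels are not compared between genes or daughters.

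Pooled over these genes, the alleles were close to balance, and the spread lay in single genes. The paternal share is 100% where all allelic reads of a gene lie in the paternal column and 50% where they split evenly. Pooled over all 64 genes, daughter 7 was the lowest at 46.3% and daughter 4 the highest at 52.5%. The median over all 274 values was 49.7%, and 190 of them (69.3%) lay between 40% and 60%, next to 69.8% for all genes. A value is called unequal here when its 95% Wilson interval leaves out 50%. By that rule 94 of the 274 values (34.3%) were unequal, 51 towards the paternal and 43 towards the maternal allele. Over all 27887 values of the table, 20.1% were unequal, 9.5% paternal and 10.6% maternal. These intervals hold the error of counting alone, as several reads can stem from 1 molecule.

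**Figure D1:**
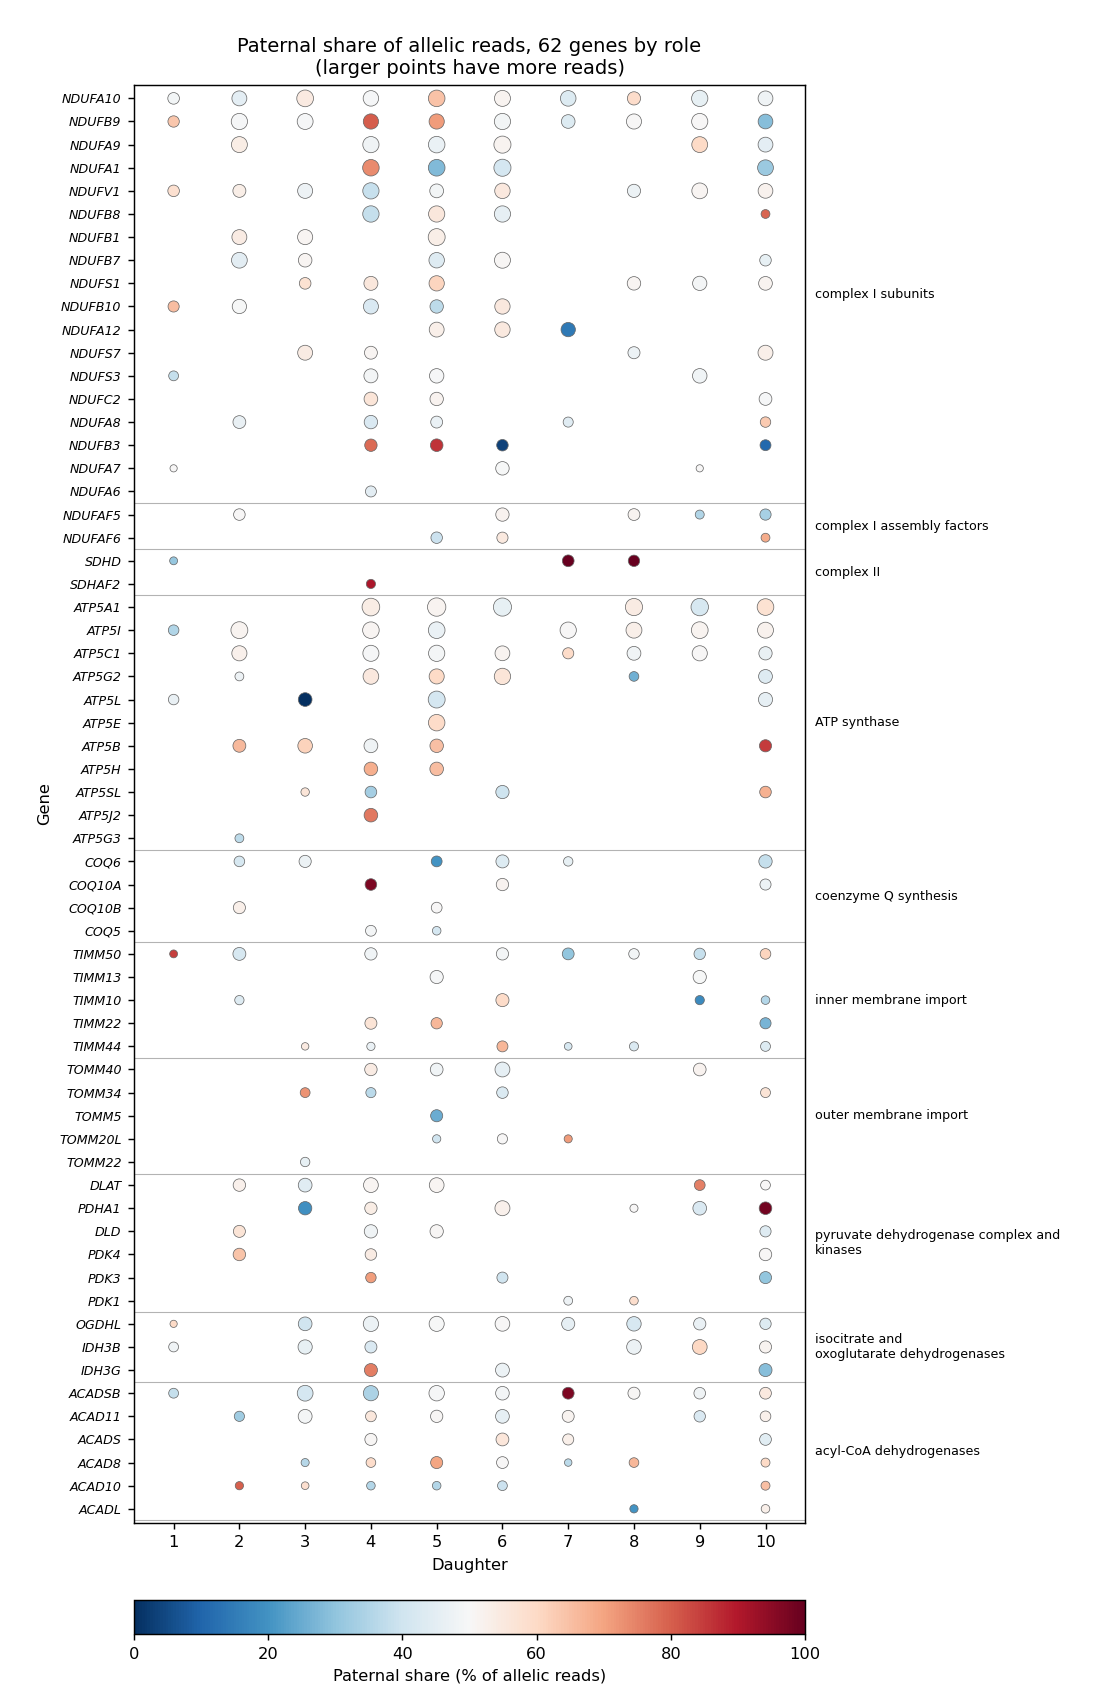
Paternal share of allelic reads (colour, blue for maternal and red for paternal excess) for the 62 genes with 10 or more reads, in rows grouped by role, in each of the 10 daughters (columns); point size grows with the number of reads and an empty place has under 10. Most points are pale, and dark ones include ATP5L in daughter 3 (0%), SDHD in daughters 7 and 8 (100%) and NDUFB3 in daughters 4, 5, 6 and 10.

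Depth moves with the count of unequal values. Among values of 10 to under 50 reads, 20.6% of 68 were unequal, against 14.3% over all genes. Among values of 50 to under 200 reads it was 36.2% of 105 against 21.8%, and from 200 reads on 41.6% of 101 against 33.7%. The share of unequal values was thus above that of all genes in each of the 3 depth classes. From 200 reads on depth was not matched, with a median of 532 reads against 353 over all genes. The share was also above that of all genes in each daughter. The gap was least in daughter 2 (21.7% against 19.2%) and most in daughter 5 (51.3% of 39 values against 23.1%). Depth was not matched within daughters either, with a median of 205 reads against 64 in daughter 5. Within title prefix 10203 the share of unequal values was 36.2% against 21.2%, and within prefix 10480 31% against 18.2%. The X-linked genes described below add to it, and without them 32.2% of 258 values were unequal. These 258 include the ATP5 genes, which were not placed on a chromosome and had 23 of 46 values unequal (50%). Over the autosomal genes of the table it was 18.9%, but that set leaves out all unplaced genes, so the sets are not alike. No test of the list was made, and values of the same gene share its sequence and its informative positions.

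**Figure D2:**
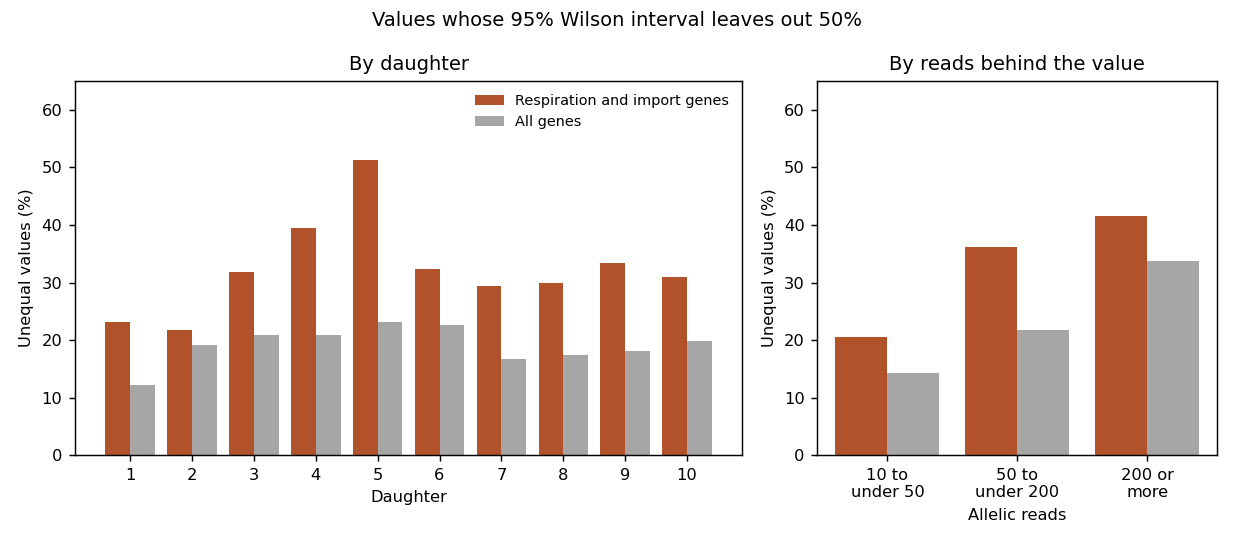
Percent of values whose 95% Wilson interval leaves out 50%, for respiration and import genes (brown bars) and all genes of the table (grey bars), by daughter on the left and by allelic reads behind the value on the right. The brown bar is the higher in every pair, from 21.7% against 19.2% in daughter 2 to 51.3% against 23.1% in daughter 5.

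Unequal values are given by role, next to 20.1% over the table and 33.7% over its values of 200 or more reads. They were 36 of 89 for complex I subunits (40.4%), 23 of 46 for genes with an ATP5 name (50%) and 7 of 23 for inner membrane import (30.4%). Pyruvate dehydrogenase and its kinases had 7 of 24 (29.2%) and isocitrate and oxoglutarate dehydrogenases 5 of 18 (27.8%). Coenzyme Q genes had 3 of 13 (23.1%), acyl-CoA dehydrogenases 7 of 36 (19.4%) and outer membrane import 2 of 13 (15.4%). Complex II genes had 3 of 4 and complex I assembly factors 1 of 8. Complex I subunits and ATP5 genes had the most unequal values among roles of more than 4 values. They also had the most reads, with a median of 370 and 346 a value, against 34 to 169 in the other roles. The part of depth in this order was not tested.

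The comparison the design implies asks whether the allele of 1 parent gave more RNA across daughters. None of these genes passed. In edgeR's quasi-likelihood test, blocked by daughter, 0 of the 25 genes measured in at least 5 daughters differed at a Benjamini-Hochberg adjusted p of 0.05, where 0% of all 2981 genes tested were called. At an unadjusted p under 0.05 there were 3 of the 25, against 94 of 2981 (3.15%) over the table. ATP5B was towards the paternal allele, where the table had 0.939%, and COQ6 and OGDHL towards the maternal allele, where it had 2.21%. DESeq2 gave 0 calls, with 53 genes at an unadjusted p under 0.05 in the table and OGDHL alone among these genes.

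ATP5B, the catalytic beta subunit of ATP synthase, was measured on 86 to 326 reads in daughters 2, 3, 4, 5 and 10, with paternal shares of 66.4%, 61.7%, 47.8%, 64.9% and 84.9%. Daughter 4 lay near balance and the other 4 on the paternal side. The mean was 65.1% ± 13.3 (SD, n = 5), with a log2 ratio of paternal to maternal of 0.89 ± 0.32 (SE, edgeR, unadjusted p = 0.0223, adjusted p = 1). It was measured in the 5 daughters that the test needs, so it could not be tested without any of them. Within prefix 10203 the mean was 60.2% ± 8.49 (SD, n = 4), and daughter 10 was the only 1 of prefix 10480.

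COQ6, a hydroxylase of coenzyme Q synthesis, lay at 41.5%, 47.1%, 20%, 43.3%, 45.8% and 38.0% in daughters 2, 3, 5, 6, 7 and 10. All 6 values were on the maternal side, and those of daughters 5 and 10 were unequal. The mean was 39.3% ± 9.99 (SD, n = 6), with a log2 ratio of -0.62 ± 0.24 (SE, edgeR, unadjusted p = 0.0261, adjusted p = 1). Leaving out a daughter in turn gave unadjusted p between 0.0244 and 0.0659. COQ6 overlaps ENTPD5 in the reference annotation, and the sources used here do not say whether reads were counted by strand. In all 10 of the 52 placed genes overlap a coding gene there, also ACADSB, ACAD11, DLD, NDUFB1, NDUFAF6, TIMM9, TIMM13, TOMM20L and TOMM34.

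OGDHL, a relative of the oxoglutarate dehydrogenase subunit found in brain, ranged from 40.1% in daughter 3 to 60% of 10 reads in daughter 1, with a median of 46.7% over 9 daughters. Daughters 3 and 8 were unequal, both maternal. Its mean was 47.1% ± 5.91 (SD, n = 9), with a log2 ratio of -0.22 ± 0.10 (SE, edgeR, unadjusted p = 0.0495, adjusted p = 1), and p ran from 0.0224 to 0.133 as daughters were left out.

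Of the remaining genes tested, those with the smallest p on the paternal side were NDUFS1, ACAD8, NDUFB9 and NDUFA10. On the maternal side they were NDUFAF5, NDUFB7 and TIMM50. The lowest unadjusted p of these genes by edgeR was 0.11, for NDUFS1. NDUFS1, an iron-sulfur subunit of complex I, was at 54.2% ± 4.65 (SD, n = 6). ACAD8, isobutyryl-CoA dehydrogenase, was at 54.0% ± 13.8 (SD, n = 7). The assembly factor NDUFAF5 was at 44.3% ± 9.25 (SD, n = 5) and NDUFB7 at 47.2% ± 3.35 (SD, n = 5). The import gene TIMM50 was at 50.2% ± 16.6 (SD, n = 8). TIMM50, a receptor of the inner membrane translocase, has a mean above 50% because of 84.6% of 13 reads in daughter 1. Its pooled share was 45.1%.

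Many genes instead took different sides in different daughters. Of the 25 genes tested, 10 (ACADSB, ATP5A1, ATP5G2, NDUFA10, NDUFA9, NDUFB10, NDUFB9, NDUFV1, PDHA1 and TIMM50) were unequal towards the paternal allele in some daughters and the maternal in others, where 26.7% of all genes tested were. Only ATP5C1 among the 25 was unequal in no daughter, where 29% of all genes tested were. The median SD between daughters was 9.25 percentage points over the 25 genes and 9.53 over all 2981, while counting error alone would give a median of 5.34 and 7.32. The SD exceeded the counting SD in 22 of the 25 genes and in 71.9% of all genes. With 50 or more reads it did so in 14 of 17 genes (82.4%) and in 81.4% of all genes. The 25 genes had a median of 1413 reads, against 531 over all genes tested. The part of depth in these counts was not tested. The 25 genes thus varied by about as much as the table, with less counting error.

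NDUFB9, an accessory subunit of complex I, showed this most clearly among the genes measured in all daughters. Daughters 4, 5 and 1 had paternal shares of 80.5%, 71.4% and 63.8%, on 481, 465 and 58 reads. Daughter 10 had 28.7% of 349 reads, with a Wilson interval of 24.2 to 33.6. The other 6 daughters lay between 43.2% and 50.1%, with intervals that include 50%. The mean was 53.5% ± 14.7 (SD, n = 10), and the edgeR log2 ratio was 0.20 ± 0.27 (SE, unadjusted p = 0.469, adjusted p = 1).

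NDUFB3, another accessory subunit of complex I, was unequal in each of the 4 daughters that measure it. Daughters 4 and 5 had paternal shares of 78.1% and 86.1%, on 96 and 108 reads, and daughters 6 and 10 of 3.23% and 10.6%, on 62 and 47. Daughters 4 and 5 have the same father label and daughters 6 and 10 the same mother label. Whether the shares follow these labels was not tested. The nearest measured genes in the reference order, NIF3L1 (6 genes away) and NOP58 (36 away), lay between 44.2% and 58.1% in daughters 4, 5 and 10. In daughter 6 the nearest were KCTD18 (17 away), on the opposite side at 98.6%, and BMPR2 (43 away) at 50.7%. NDUFB3 has too few daughters for the test.

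Other complex I subunits shifted to either side as well. NDUFA10 was paternal in daughters 5, 8 and 3, with 64.7%, 59.3% and 54.7% of 1144, 150 and 1253 reads, and maternal in daughters 7 and 9, with 43.1% and 46.1% of 589 and 918. The remaining 5 lay between 45.2% and 51.6%, and the mean was 51.0% ± 6.74 (SD, n = 10). NDUFV1, the flavoprotein that takes electrons from NADH, was at 38.3% and 55.4% in daughters 4 and 6, on 906 and 540 reads, with 47.3% to 57.8% in the other 7. NDUFA9 was at 60.1% and 46.6% in daughters 9 and 5, on 711 and 1103 reads. These genes encode the electron entry arm of the complex (NDUFV1) or accessory subunits (NDUFA9, NDUFA10). NDUFB8, also accessory, had 38.2%, 55.7%, 45.5% and 78.9% in daughters 4, 5, 6 and 10, the last on 19 reads, so daughters 4 and 5 differed although their father label is the same. NDUFB10 was at 65.4% of 52 reads in daughter 1 and 55.3% in daughter 6, and at 42.4% and 37.0% in daughters 4 and 5. NDUFA12 was near balance in daughters 5 and 6, at 53.0% and 54.7%, and at 14.1% of 277 reads in daughter 7. In contrast NDUFS3, NDUFS7 and NDUFC2 had no unequal value in the 3 or 4 daughters with 10 or more reads.

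**Figure D3:**
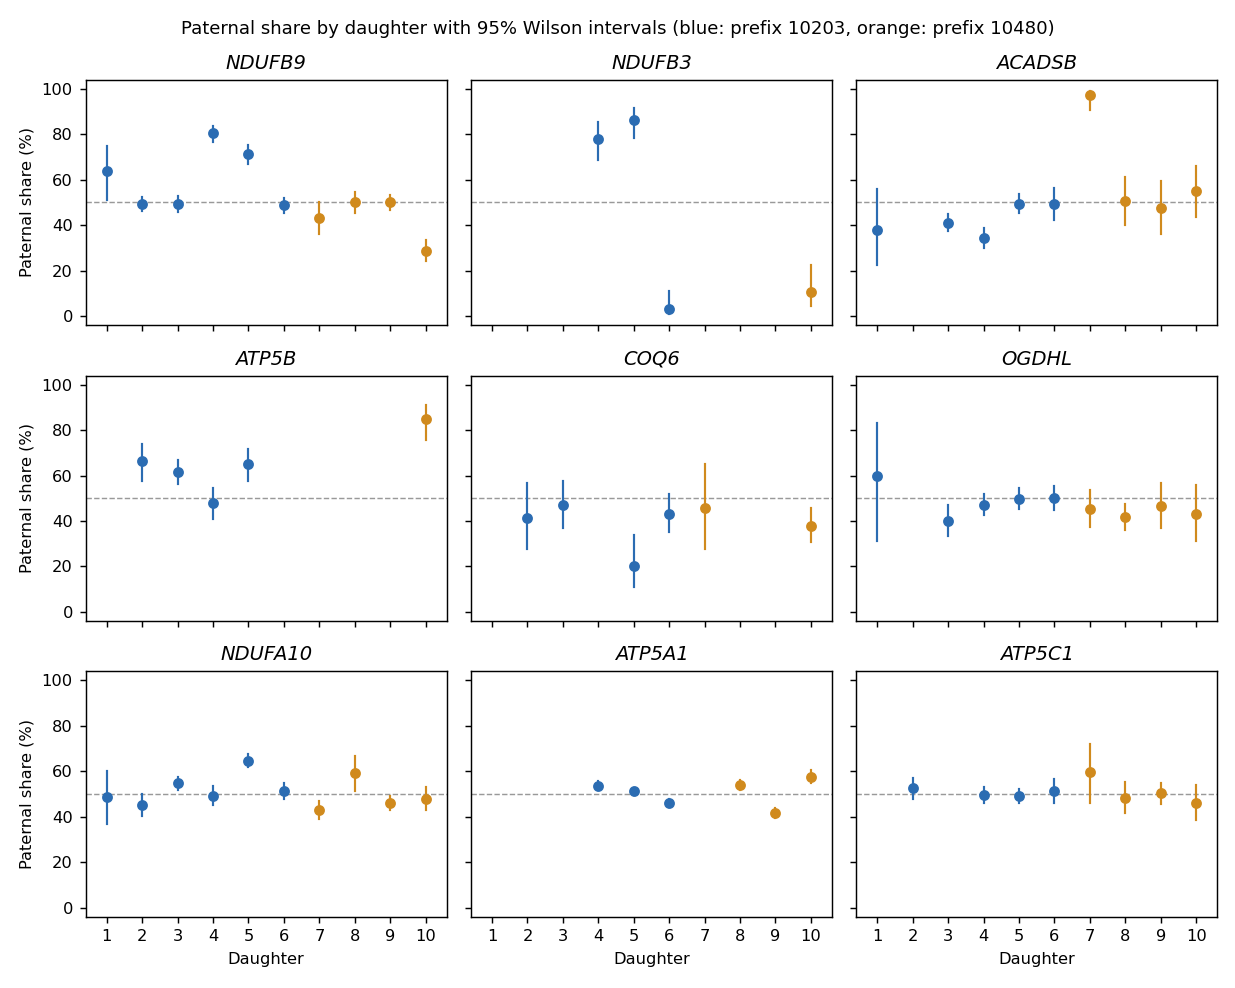
Paternal share (vertical axis, percent) of 9 genes in each daughter (horizontal axis), with 95% Wilson intervals for counting error as bars; blue points have title prefix 10203, orange points 10480, and the dashed line is 50%. NDUFB9, NDUFB3 and ACADSB have daughters far from the line on differing sides or in 1 daughter, COQ6 has all 6 points below it, and ATP5C1 stays at 46.1% to 59.6% with every interval over the line.

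Among ATP synthase genes small shifts could be resolved in those with many reads. ATP5A1, the alpha subunit, had the most reads of the 64 genes, 1184 to 3891 in each of 6 daughters. Daughters 4, 5, 6, 8, 9 and 10 had paternal shares of 53.6%, 51.3%, 45.9%, 54.1%, 41.5% and 57.6%. All but daughter 5 were unequal, 2 of them maternal and 3 paternal, and the mean was 50.7% ± 5.91 (SD, n = 6). ATP5C1, the gamma subunit of the rotor, showed no such shifts, with 50.8% ± 4.04 (SD, n = 8) and a highest value of 59.6% of 52 reads in daughter 7. ATP5I, a small membrane subunit, lay between 50.2% and 52.8% in 6 daughters, at 46.6% of 1194 reads in daughter 5 and at 35% of 40 in daughter 1.

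ATP5G2, a c subunit of the proton-driven ring, was paternal in daughters 4, 5 and 6, at 55.2%, 60.1% and 56.3%. Daughters 2, 8 and 10 lay below 50%, at 47.4%, 25.9% and 43.7% on 19, 27 and 206 reads, and of these only daughter 8 was unequal. ATP5H, a peripheral stalk subunit, had 68.3% and 65.6% of 183 reads each in daughters 4 and 5, the only daughters that measure it. ATP5L, a membrane subunit, had 0 paternal reads of 194 in daughter 3, which allows a share of up to 1.55%, but daughters 5, 10 and 1 had 41.0%, 45.6% and 46.2% of 1421, 248 and 39 reads. ATP5J2 and ATP5E were measured in 1 daughter each, ATP5J2 with 76.3% of 186 reads (daughter 4) and ATP5E with 59.6% of 1068 (daughter 5). Respiration genes have many processed copies in mammalian genomes, and the c subunit has several genes with near-identical proteins. The authors' counting could mix or split reads between such copies, so these shares are uncertain to that extent.

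Near-complete use of 1 allele was seen in 8 of 246 values with 20 or more reads (3.25%, at 90% or more on 1 allele), against 1.6% of values over the table. They fell in 7 of 59 genes (11.9%), against 6.08% of all genes. SDHD, the membrane anchor of succinate dehydrogenase, gave 2 of the 8. All of its reads were paternal in daughters 7 and 8, 70 of 70 and 59 of 59, which allows a maternal share of up to 4.29% and 5.08%. Both carry the same father label. Daughter 1, with that label too, had 30.8% of 13 reads, with a wide interval of 12.7 to 57.6. SDHD is known in people for tumours that arise almost only when the mutation comes from the father, which is background here. SDHAF2, a complex II assembly factor known for the same pattern, had 90.9% of 22 reads in daughter 4, the only daughter that measures it.

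The genes nearest to SDHD did not share its shares. PIH1D2 had 42.6% in daughter 7 and 25.4% in daughter 8, on the maternal side, and BCO2 56.4% and 52.5%. The reference order puts each 3 genes away.

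The remaining values at 90% or more were in 1 daughter each. ACADSB, which oxidises short branched-chain acyl-CoA, had 97.3% of 73 reads in daughter 7. It is also 1 of the genes that overlap a coding gene. Daughters 4 and 3 were maternal, with 34.2% and 41.1% of 465 and 674 reads, and the other 6 lay between 37.9% and 54.9%. COQ10A, a coenzyme Q binding protein, had 97.0% of 66 reads in daughter 4 and 51.6% and 47.1% in daughters 6 and 10. NDUFB3 in daughter 6, ATP5L in daughter 3 and PDHA1 in daughter 10 complete the list. Measured neighbours of ACADSB and COQ10A in those daughters, HTRA1, OAT, ANKRD52 and CNPY2, had intervals that include 50%.

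X-linked genes had the shares of their chromosome, with PDHA1 as the exception. In a female each cell keeps 1 X active, so a tissue can lean to either parent's X as a whole. IDH3G, NDUFA1, PDK3 and PDHA1 are on X in the reference gene table, 48 of the genes are on autosomes and 12 were not placed, all of them ATP5 names. With 20 or more reads, the median distance from 50% was 19.9 percentage points over 15 X-linked values and 4.67 over the 231 others. Without daughter 10 the X-linked distance was 10.0 points over 11 values and that of the others 4.5, so daughter 10 decides much of this gap.

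NDUFA1, a small subunit of complex I, had paternal shares of 73.7%, 27.8%, 41.3% and 31.3% in daughters 4, 5, 6 and 10, on 671 to 1583 reads. The medians of other X-linked genes in these daughters were 73.6%, 27.7%, 44.9% and 29.6%, over 84 to 109 genes. IDH3G, a regulatory subunit of the NAD-dependent isocitrate dehydrogenase, followed with 75.5%, 47.0% and 28.9% in daughters 4, 6 and 10. PDK3, a kinase that switches pyruvate dehydrogenase off, had 71.1%, 40% and 30.1% in the same daughters. All 10 of these values lay on the side of the X-linked median.

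PDHA1, the catalytic alpha subunit of pyruvate dehydrogenase, lay apart from that median in several daughters. In daughter 10 the paternal allele had 98.1% of 108 reads, with a Wilson interval of 93.5 to 99.5, where the X-linked median was 29.6% and 1 of 84 other X-linked genes was higher. Its share was 53.8% of 93 reads in daughter 4, a difference of -19.8 points from the median, and 52.7% of 410 in daughter 6, 7.78 points above. Daughters 3 and 9 had 19.5% and 42.4%, on 159 and 191 reads, both on the side of the median. In daughter 3 the Wilson interval of 14.1 to 26.3 left out the median of 27.7%, and 65 of 72 other X-linked genes were higher. The share in daughter 9 was near its median of 43.2%. PDHA1 has an autosomal copy without introns, PDHA2, so reads of the pair could be mixed, which was not tested. PHKA2, the nearest measured gene before it, had 34.3% in daughter 10.

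**Figure D4:**
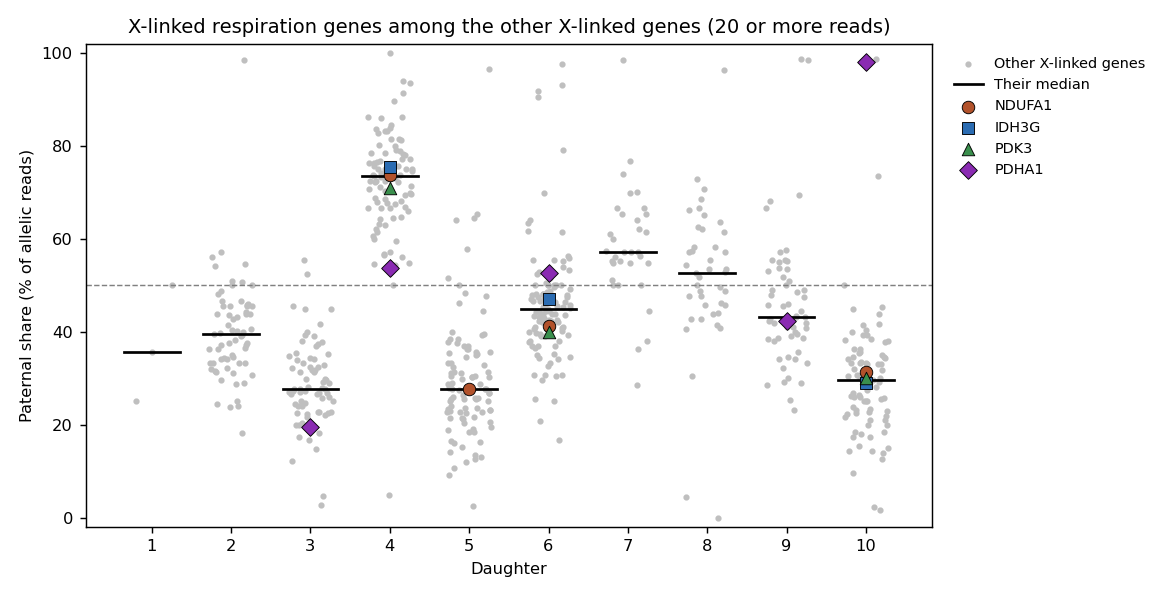
Paternal share (vertical axis, percent of allelic reads) of X-linked genes with 20 or more reads in each daughter (horizontal axis); grey points are other X-linked genes, black bars their median, and coloured symbols NDUFA1, IDH3G, PDK3 and PDHA1. NDUFA1, IDH3G and PDK3 sit near the bar in each daughter, while PDHA1 is 68.6 points above it in daughter 10.

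Daughters with a shared labelled parent were set side by side, since they can carry the same allele from that parent. In daughters 4 and 5, with the same father label, 26 genes had 20 or more reads in both. Of these, 7 (26.9%) were unequal in both, against 206 of 2512 (8.2%) over all genes. NDUFB9, NDUFB3, ATP5H and ATP5G2 were paternal in both and NDUFB10 maternal in both, while NDUFB8 and the X-linked NDUFA1 took opposite sides. Over all genes of this pair that were unequal in both, 53.9% of 206 took the same side. In daughters 6 and 10, with the same mother label, 4 of 26 genes (15.4%) were unequal in both, against 8.29% over all genes. NDUFB3 and NDUFA1 were maternal in both, and ATP5A1 and ATP5SL took opposite sides. Over all genes of that pair unequal in both, 33.3% of 162 took the same side. In daughters 7 and 8, 2 of 8 genes (25%) were unequal in both, against 5.88% over all genes. SDHD was paternal in both and NDUFA10 went from 43.1% to 59.3%. Over all genes of this pair unequal in both, 68.4% of 57 took the same side. Daughter 1 had no gene unequal in both with daughter 7 or 8. Within the 5 pairs 13 of 70 comparisons (18.6%) were unequal in both, against 7.78% over all genes. Within the 40 other pairs it was 68 of 491 (13.8%), against 6.96%. Single pairs of the 40 ran from 0% to 33.3%, the latter in daughters 4 and 6 among others (8 of 24). In all, 8 of 13 such comparisons within the 5 pairs were on the same side (61.5%), next to 29 of 68 (42.6%) within the 40 other pairs of daughters. Over all genes the same shares were 47.8% and 49.9%. The pairs overlap in daughters, and no test was made. Depth was not matched, with a median of 154.5 reads for values of 20 or more reads, against 73 over all genes.

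**Figure D5:**
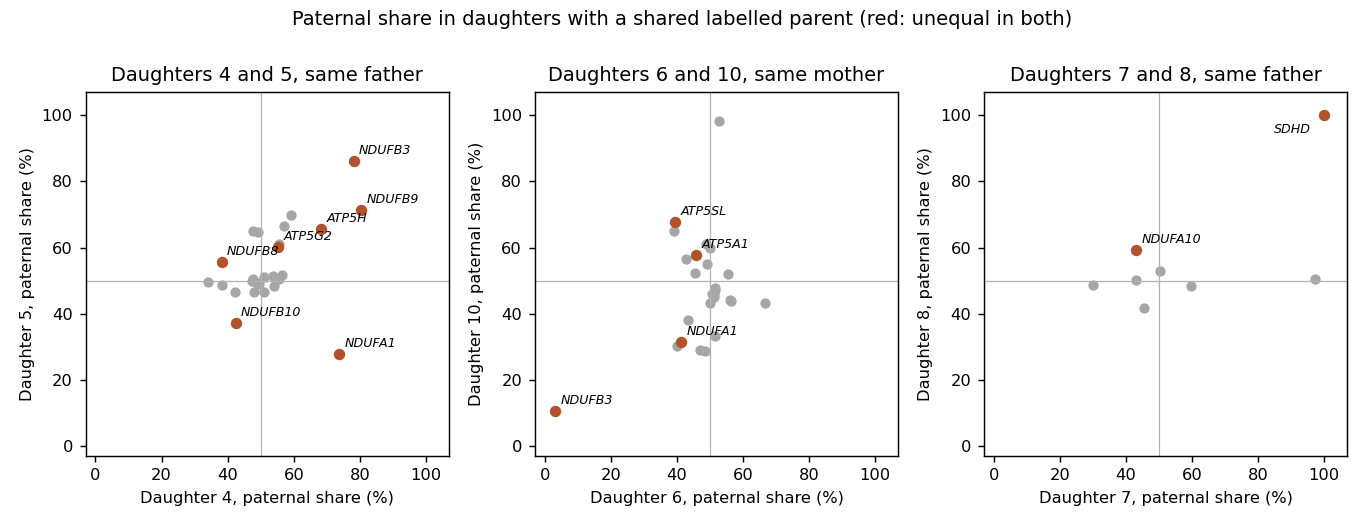
Paternal share (percent) of each gene with 20 or more reads in both daughters of a pair that shares a labelled parent (daughters 4 and 5, 6 and 10, 7 and 8), the first daughter on the horizontal and the second on the vertical axis; red points are unequal in both by the Wilson rule and named, grey points are not. For daughters 4 and 5, NDUFB3, NDUFB9, ATP5H and ATP5G2 lie above 50% on both axes and NDUFB10 below it on both, while NDUFB8 and NDUFA1 are above it on 1 axis only.

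Import genes had few reads, with a median of 48 a value for inner and 34 for outer membrane import. Inner membrane import had 60.9% of its values between 40% and 60% and outer membrane import 69.2%. This was 69.8% over all genes and 56.8% over all values of 10 to under 50 reads. TIMM13, a chaperone of the intermembrane space, had 49.3% and 49.7% in its 2 daughters. TOMM40, the channel of the outer membrane, had 49.9% ± 3.82 (SD, n = 4) and no unequal value. TIMM22, the core of the carrier translocase, was at 57.0% and 66.7% in daughters 4 and 5 and at 26.9% of 52 reads in daughter 10. TIMM10, a small chaperone, had 59.4% and 18.2% in daughters 6 and 9, on 138 and 22 reads. TIMM44, a tether of the import motor, had 66.7% of 48 reads in daughter 6, TOMM34 72.4% of 29 in daughter 3, and TIMM50 30.1% of 73 in daughter 7, all unequal. TOMM5 had 25.3% of 83 reads in daughter 5 alone. Among enzymes feeding the chain, DLAT, the acetyl transferase of the pyruvate dehydrogenase complex, lay between 43.8% and 52.5% in 5 daughters and at 75% of 44 reads in daughter 9. DLD and ACADS had no unequal value in 4 daughters each. IDH3B was at 60.4% of 369 reads in daughter 9 and the other 5 daughters lay between 42.5% and 51.2%. ACAD11 had 1 unequal value of 8, 32.4% of 34 reads in daughter 2, and ACAD10 ranged from 35.3% to 80% on 12 to 28 reads.

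Title prefix, 10203 for daughters 1 to 6 and 10480 for daughters 7 to 10, is the only label that could mark a batch. The parental difference differed between prefixes in 0 of 24 genes tested at an adjusted p of 0.05 (edgeR interaction), where 0.0338% of all 2960 genes tested were called. At an unadjusted p under 0.05 there were 3, against 3.55% over the table. These were ATP5G2 (difference in log2 ratio, 10480 minus 10203, -1.07 ± 0.34, SE, adjusted p = 1), ATP5B (1.82 ± 0.59, SE, with 1 daughter of prefix 10480) and NDUFB9 (-1.04 ± 0.45, SE). NDUFB9 averaged 60.5% ± 13.5 (SD, n = 6) in prefix 10203 and 43.0% ± 10.1 (SD, n = 4) in 10480. DESeq2 called 0 of the 24 as well.

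Other genes of the same pathways, from lists outside the name rule, likewise gave no parental call, but fewer of their values were unequal. Of 112 listed genes 45 had a row, 27 were tested and 0 passed, with POLRMT, the mitochondrial RNA polymerase, the 1 gene at an unadjusted p under 0.05 (paternal share 39.98% ± 6.91, SD, n = 7, edgeR unadjusted p = 0.0191, adjusted p = 1). Unequal values were 46 of 238 (19.3%), near the 20.1% of the table, where the genes of the name rule had 34.3%. This difference between the lists was not tested, and the reads behind their values were not matched. The citric acid cycle enzyme MDH2 had 49.4% ± 4.21 (SD, n = 4) and SUCLA2 57.4% ± 14.6 (SD, n = 7). SURF1, an assembly factor of cytochrome c oxidase, had 43.7% ± 12.4 (SD, n = 9). The import peptidase PMPCB had 50.1% ± 4.34 (SD, n = 8) and the protease AFG3L2 51.3% ± 3.15 (SD, n = 5). The channel VDAC3 had 50.7% ± 3.56 (SD, n = 6) and the carrier SLC25A11 49.99% ± 3.49 (SD, n = 6). HADHA and HADHB, the trifunctional enzyme of fatty acid oxidation, had 52.2% ± 4.81 (SD, n = 9) and 50.1% ± 5.72 (SD, n = 10).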

How the data were processed

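Libraries were stranded, from total RNA depleted of ribosomal RNA, and read from both ends, per the labels' protocols, which also name an antibody step on nuclei that no count used here comes from. The submitters' processing notes name Novoalign. The authors deposited raw counts of reads per gene, split by parental allele, with macFas5 as build per the file headers. The sources used here do not give the phasing of alleles or the filters on reads. Each of the 20 columns was matched to a sample by its title. A gene without a value was set to 0 in both columns of that daughter and adds nothing to the test.

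Members and lists were chosen with earlier results of these data known. edgeR 4.0.16 in R 4.3.3 (estimateDisp, glmQLFit and glmQLFTest, robust, TMM on daughter totals) tested all genes with 10 allelic reads in at least 5 daughters, and DESeq2 1.42.0 was the other tool. The daughter is the block because both columns are 1 animal. Deviations of the columns of the same daughter correlated at 0.880 to 0.970, those of different daughters at -0.209 to 0.223. The parental comparison was tested on simulated data of 2981 genes, where edgeR found 72% of 100 genes with a 2-fold and 99% of 100 with a 4-fold difference, and made 3 false calls. Intervals are 95% Wilson intervals, and limits for a share of 0 use 3 counts. Both cover counting error only. Samples are separate animals by their labels.

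Chromosomes and gene order come by symbol from RefSeq's gene table of T2T-MFA8v1.1, another build, which placed 52 of 64 genes, and 17 of the 52 overlap another gene there. Neighbours were looked up for values with 20 or more reads at or beyond 25% or 75%. Named genes were those measured in at least 9 daughters, the 10 with most reads, the 5 with the smallest p in each direction, the 10 with the highest SD, those at 90% or more on 1 allele and those on X. Further genes are given by role and were chosen after their values were seen. Alternatives were other normalization, read minimums and tests, no block, each prefix alone and each daughter left out. SciPy 1.17.1 and pandas 2.3.3 were used.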

Additional observations from a re-analysis of the deposited data

Results flagged for a closer look

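In 9 of the 37 genes measured in 4 to 10 daughters, the highest or lowest daughter stood apart from the others by Dixon's 95% criterion. These are 24.3% of the 37, next to 11.7% of all 3646 genes of the table measured in as many daughters. For values of equal error chance flags about 1 group in 20, or 1.85 of 37, but the reads behind these values differ widely. On the high side were ACADSB in daughter 7 (97.3% of 73 reads, others 34.2% to 54.9%), DLAT in daughter 9 (75% of 44 reads, others 43.8% to 52.5%), NDUFA8 in daughter 10 (63.2% of 38, others 42.3% to 46.7%), ATP5C1 in daughter 7 (59.6% of 52, others 46.1% to 52.5%) and OGDHL in daughter 1 (60% of 10, others 40.1% to 50%). On the low side were ATP5L in daughter 3 (0% of 194, others 41.0% to 46.2%), COQ6 in daughter 5 (20% of 45, others 38.0% to 47.1%), ATP5I in daughter 1 (35% of 40, others 46.6% to 52.8%) and NDUFS3 in daughter 1 (37.9% of 29, others 48.4% to 49.3%). The values of NDUFA8, ATP5C1, OGDHL, ATP5I and NDUFS3 have Wilson intervals that include 50%, and 3 of these 5 are of daughter 1, which has the fewest reads.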

How the results depend on the processing

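No edgeR or DESeq2 setting called any of these genes in either comparison. Over the whole table, the parental comparison called 0 genes in the main analysis, 2 with no read filter, 1 within prefix 10480, and 0 to 1 as each daughter was left out, the 1 being without daughter 4. Without the replicate block it called 0, and 0 of the 25 genes described here had an unadjusted p under 0.05, and the exact sign-flip test over daughters, whose smallest possible p of 0.00195 leaves it unable to pass adjustment over 2319 genes with 83 under 0.05, says nothing either way. The prefix interaction called 1 gene, 0 with 20 or more reads, and 0 to 2 as daughters were left out (0 without daughter 1, 3, 4 or 5 and 2 without daughter 7 or 9). Unequal values fell from 34.3% to 21.9% of 274 with an exact binomial test adjusted over the table, where all genes fell to 8.57%. They were 31.5% to 35.5% as daughters were left out. The median SD of 9.25 points was 7.68 with 20 and 5.91 with 50 or more reads. The gap between X-linked and other genes was 15.2 points, and 5.5 without daughter 10. Of the respiration and import genes, the 3 at an unadjusted p under 0.05 in the parental comparison became 1 without daughter 3, 4 or 5, 0 without daughter 10, and 5 with no read filter. The 3 of the prefix interaction became 1 without daughter 4 or 5 and 8 with no read filter. ATP5B, among the 3 in each comparison, could not be tested without daughter 2, 3, 4, 5 or 10. Part of these drops is thus its loss from the test. Mean shares of the named genes moved by less than 1 SD in all 232 recomputations of genes with an SD. Leaving out 1 daughter cannot move a mean by 1 SD, so for those recomputations the outcome was fixed in advance. COQ10A, for example, went from 65.2% to 49.3% without daughter 4, and PDHA1 from 52.75% to 43.7% without daughter 10. SDHAF2, in 1 daughter, has no SD. Depth limits values of under 50 reads most.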
